A study of Mus musculus with 5 samples.

Results

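The 10 genes described here encode the subunits of NF-κB and the proteins that hold it back or modulate it: Nfkb1, Nfkb2, Rel, Rela, Relb, Nfkbia, Nfkbie, Nfkbiz, Tnfaip3, and Bcl3. They were chosen by name, each symbol was matched to its Entrez gene, and all 10 were found among the 17058 genes listed in at least 1 library. RNA was sequenced from 5 samples of BMDMs, macrophages grown from bone marrow, of Balb/c mice, which the study's methods give as 6 to 12 weeks old. The macrophages were cultured for 48 hours across a porous membrane from 4T1 cells, a mouse mammary carcinoma line, which were WT in 2 libraries and ADAM17 knock-out in 3. All 3 knock-out libraries carry the line designation 2.8 in their labels, so the deletion and anything else particular to that line cannot be told apart. Adam17 encodes a protease that sheds growth factors, TNF-α, and receptors from the cell surface, and it was deleted by CRISPR/Cas9 in the cancer cells only, so that the sequenced macrophages of both groups were unedited. The question for these genes is whether the macrophage transcripts of the NF-κB system differ with the ADAM17 status of the neighboring cancer cells.

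NF-κB is a family of dimeric transcription factors that most macrophage-activating signals converge on. In resting cells, the dimers are held in the cytoplasm by inhibitors of the IκB family. A kinase complex marks the inhibitor for degradation, the dimer enters the nucleus, and among the genes it turns on are those of its own inhibitors, which end the response. In the noncanonical branch, the p100 precursor made from Nfkb2 is processed to p52, which pairs with RelB. The activity of the pathway is set mainly by protein degradation and movement into the nucleus, which transcript levels do not show.

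Short DNA elements known as κB sites lie upstream of several of these genes, and the stretches just before the start are shown here so that these sites, and their absence from Rela, can be read beside the values. The sequences come from RefSeq (build GRCm38.p6), which held windows of 250 bases before to 50 bases after the start for 7 of the 10 genes. Nfkb1, Relb, and Nfkbiz had no entry. Each line gives the 120 bases before a start on the coding strand, 5′ to 3′, and capitals mark matches to the classic κB decamer consensus on either strand.
Nfkb2, chr19:46304617-46304736, plus strand: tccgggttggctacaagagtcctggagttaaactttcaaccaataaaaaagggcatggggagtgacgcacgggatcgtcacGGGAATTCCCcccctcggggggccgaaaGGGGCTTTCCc
Nfkbia, chr12:55492648-55492767, minus strand: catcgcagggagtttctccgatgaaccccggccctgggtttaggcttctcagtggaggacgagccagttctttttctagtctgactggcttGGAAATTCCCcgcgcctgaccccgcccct
Rel, chr11:23770970-23771089, minus strand: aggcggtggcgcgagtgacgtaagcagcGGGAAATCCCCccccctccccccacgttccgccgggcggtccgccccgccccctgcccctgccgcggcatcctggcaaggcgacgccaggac
Tnfaip3, chr10:19015411-19015530, minus strand: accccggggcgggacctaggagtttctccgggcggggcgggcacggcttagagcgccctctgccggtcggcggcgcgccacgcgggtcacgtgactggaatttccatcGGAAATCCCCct
Rela, chr19:5637421-5637540, plus strand: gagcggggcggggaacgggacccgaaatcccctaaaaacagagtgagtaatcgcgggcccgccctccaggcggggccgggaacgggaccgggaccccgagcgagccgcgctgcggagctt

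In these windows the consensus was matched in 5 of the 7 genes (Nfkb2, Nfkbia, Rel, Tnfaip3, and Bcl3) and in neither Rela nor Nfkbie. Over all genes of the table it was matched in 1769 of 27025 genes, or 6.546%, in windows of the same length. The first of the 3 Nfkb2 starts had a match beginning 39 bases before the start and another 11 bases before it, whereas the windows of the other 2 starts shared a single match. The Nfkbia match began 29 bases before the start and the Tnfaip3 match 12 bases before it, the latter at 1 of the gene's 2 starts only. The run of capitals in Rel holds 2 overlapping matches, 92 and 91 bases before the start. In Bcl3 the match began at base 3 of the transcript, beyond the stretches shown. Among the genes around the pathway, 5 of 13 other negative regulators and 5 of 18 target genes had a match, against 1 of 6 receptors, 1 of 14 adaptors, and 1 of 8 kinases. A match is a run of letters, not a measured binding site, and its absence says only that these letters are not in this window. Of the 7 genes, Nfkb2 and Bcl3, with a match, and Rela, without, fell in the knock-out cocultures, as described next. Nfkbia, Rel, and Tnfaip3, with a match, and Nfkbie, without, did not pass. A relation between matches and changes was not tested.

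The libraries held 14658694 to 20788373 expected counts, and 12576 genes passed the filter on low counts, all 10 NF-κB genes among them. Counts were scaled to a common library total (CPM) with edgeR's TMM factors, fold changes carry the standard error (SE) of the fit, and genes passed the test at an adjusted p of 0.05 or less in edgeR's quasi-likelihood fit over all genes. On the first principal component (63% of the variance) the 2 groups lay apart. Adam17 itself was expressed by the macrophages, at 197.5 and 199.6 CPM in the WT cocultures and 151.6 to 163.8 CPM in the knock-out cocultures. It passed as lower there (log2 fold change -0.32, adjusted p = 0.0129 from edgeR), which is no check of a deletion made in other cells. Macrophage markers were lower in the knock-out cocultures (8 of 8 without overlap, 6 of 8 passing, summed level 27659 to 28416 CPM against 17945 to 19906 CPM), and neutrophil granule genes were higher (8 of 10 passing, 324 to 394 CPM against 1134 to 1311 CPM). The shares over all genes tested were 29.7% lower without overlap, 16.8% passing as lower, and 14.9% passing as higher. Of 9 tested mature dendritic cell genes, 5 passed as higher (30.2 to 47.6 CPM against 68.8 to 88.9 CPM summed over the list), and Cd209a went the other way without passing (log2 fold change -0.58). All 3 tested nuclear-retained RNAs passed as higher (6002 to 6098 CPM against 9908 to 11310 CPM). Of 8 epithelial genes of the carcinoma cells, 6 had at most 3 counts in every library, Krt18 had 5 to 8 counts, and Cdh1 had 173 to 242 counts and did not pass. Of 6 megakaryocyte and platelet genes, 5 rose, with log2 fold changes of 0.72 to 1.67, and Pf4, which made up most of their summed level (2043 to 2141 CPM against 1045 to 1159 CPM), fell. The part of these shifts in the NF-κB values was not tested, and in bulk RNA fewer cells of a type and less RNA per cell cannot be told apart.

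Of the 10 NF-κB genes, 4 fell in macrophages cocultured with Adam17-/- cells and 0 rose. Of all genes tested, 16.8% fell and 14.9% rose by the same edgeR test. DESeq2 also gave 4 lower and 0 higher, and at an unadjusted p under 0.05 in edgeR 5 of the 10 were lower and 0 higher, where 43.5% of all genes stood in either direction. The 4 were the subunit genes Nfkb2, Rela, and Nfkb1 and the regulator Bcl3, and their decreases lay between 17.8% and 31.5%. None of the 10 reached an absolute log2 fold change of 1, whereas 0.867% of all genes passed with at least that size as lower and 3.36% as higher. The median log2 fold change was -0.26 over the 10 genes, against 0.01 over all genes tested, and 8 of the 10 values were below 0. With Adam17-/- replicate 1 or replicate 3 left out, 0 of the 10 passed, without WT replicate 1 or Adam17-/- replicate 2 it was 2, and without WT replicate 2 it was 7. The number of lower genes over the whole table moved too, from 2114 to 926 and 1237 without Adam17-/- replicates 1 and 3, and to 2940 without WT replicate 2.

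**Figure D1:**
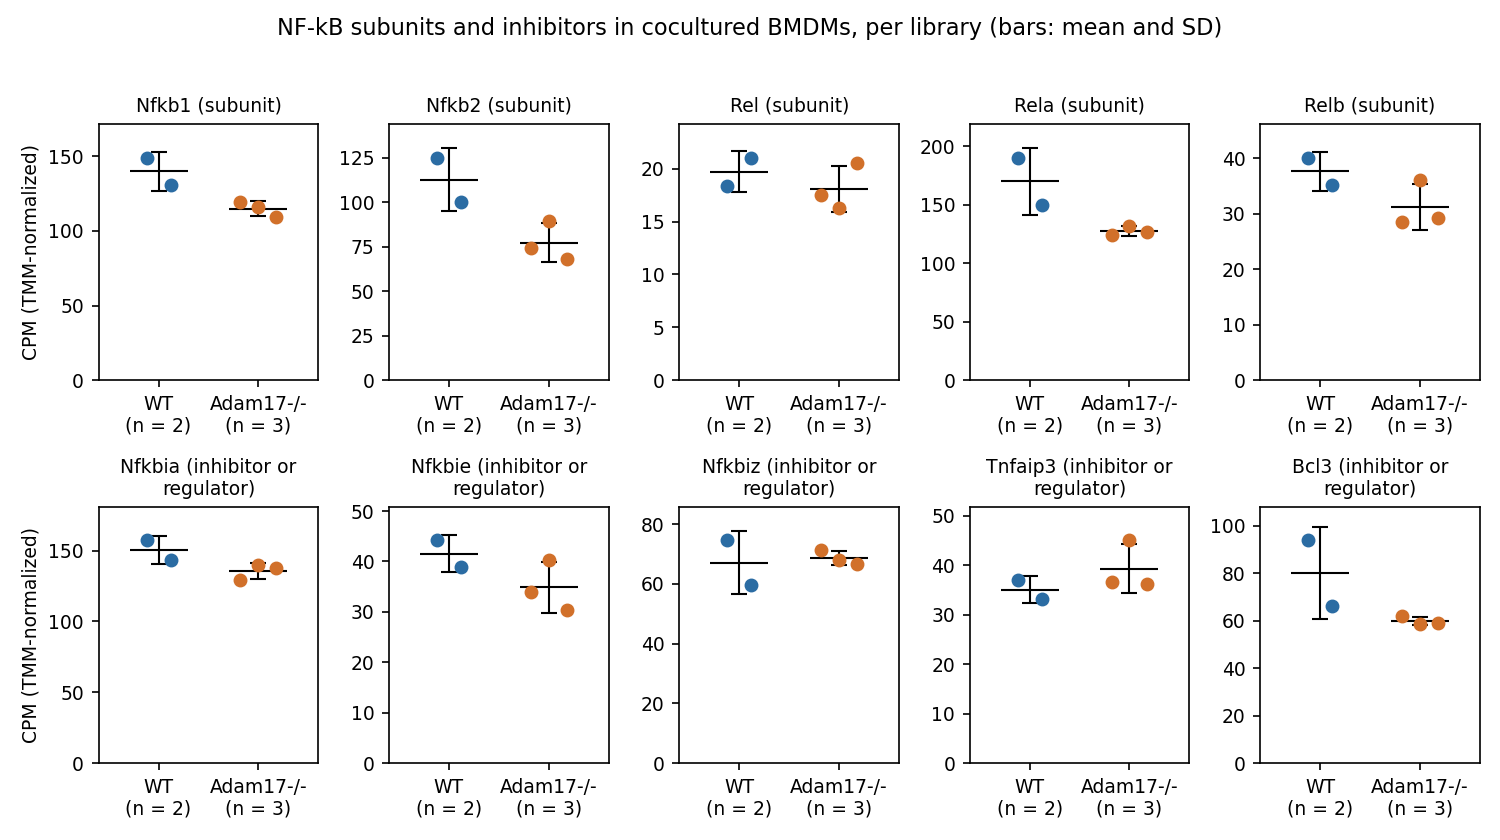
TMM-normalized CPM of each gene in every library, with WT cocultures in blue and Adam17-/- cocultures in orange, and with bars for the mean and SD. The 3 Adam17-/- libraries lie below both WT libraries for Nfkb1, Nfkb2, Rela, Nfkbia, and Bcl3, and the groups overlap for the other 5 genes.

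Nfkb2 (Entrez Gene 18034, chromosome 19, 46300994 to 46312400 of GRCm38.p6) encodes p100, the precursor of the p52 subunit and itself an inhibitor of RelB. It stood at 125.2 and 100.4 CPM in WT replicates 1 and 2, and at 74.54, 89.34, and 68.2 CPM in Adam17-/- replicates 1, 2, and 3. Every knock-out library was below both WT libraries, and replicate 2 was the nearest to them. The means were 113 ± 17.6 CPM (SD, n = 2) and 77.4 ± 10.8 CPM (SD, n = 3), and edgeR fitted a log2 change of -0.55 (SE 0.130, adjusted p = 0.0123). In that edgeR fit Nfkb2 did not pass the stricter limit of 0.01. At the adjusted p of 0.05, Nfkb2 held its call in 10 of 13 alternative fits (other tools, scalings, filters, and units, the replicate block, and each library left out), more than any other gene of the group. The exceptions among the fits were the omission of Adam17-/- replicate 1 (log2 change -0.50, adjusted p = 0.0609) or replicate 3 (-0.44, adjusted p = 0.0567), and the replicate block, all in edgeR fits.

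Rela (Entrez Gene 19697, chromosome 19, 5637442 to 5648134) encodes p65, the subunit with the transactivation domain in the most common NF-κB dimer. It reached 190.5 and 150 CPM after WT coculture and 124, 132.3, and 127.2 CPM in the Adam17-/- libraries. The knock-out libraries were close together and below both WT libraries, which were far apart from each other. The means of 170 ± 28.7 CPM (SD, n = 2) and 128 ± 4.17 CPM (SD, n = 3) were fitted by edgeR as a log2 change of -0.41 (SE 0.105, adjusted p = 0.0161). The size of this decrease followed WT replicate 1, since it was -0.23 without that library and -0.58 without WT replicate 2, both with an adjusted p under 0.05 in edgeR. With Adam17-/- replicate 1 left out it was -0.37 (adjusted p = 0.0790), and with replicate 3 left out -0.39 (adjusted p = 0.0616), both from edgeR.

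Nfkb1 (Entrez Gene 18033, chromosome 3, 135584655 to 135691969) encodes p105, the precursor of p50 and the usual partner of p65. It was measured at 149.1 and 130.5 CPM after WT coculture and at 119.3, 116.1, and 109.4 CPM after Adam17-/- coculture, again without overlap. The decrease was the smallest of the 4, with means of 140 ± 13.1 CPM (SD, n = 2) and 115 ± 5.03 CPM (SD, n = 3), and edgeR fitted a log2 change of -0.28 (SE 0.0888, adjusted p = 0.0368). It passed in 4 of the 13 alternative fits, and without WT replicate 1 the value was -0.19 (adjusted p = 0.0751 from edgeR). With Adam17-/- replicate 1, 2, or 3 left out the value was -0.29, -0.27, and -0.23, and the call was lost (adjusted p = 0.106, 0.112, and 0.157 from edgeR).

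The other 2 subunit genes did not pass the test. Relb (Entrez Gene 19698, chromosome 7, 19606217 to 19629438), whose product pairs with p52 in the noncanonical branch, had 40.09 and 35.12 CPM with WT cells and 28.57, 35.98, and 29.12 CPM with Adam17-/- cells. Adam17-/- replicate 2, which was also the highest for Nfkb2 and Rela, lay between the WT libraries, so that the groups overlapped. The fit in edgeR gave -0.27 on the log2 scale (SE 0.121, adjusted p = 0.115), close in size to that of Nfkb1. Rel (Entrez Gene 19696, chromosome 11, 23736847 to 23770969), which encodes the c-Rel subunit, had 18.32 and 21.05 CPM against 17.46, 16.31, and 20.49 CPM. Its groups overlapped, and the fit in edgeR gave -0.12 on the log2 scale (SE 0.127, adjusted p = 0.502).

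Among the inhibitors, Bcl3 was the 1 gene that fell. Bcl3 (Entrez Gene 12051, chromosome 7, 19808462 to 19822824) is an atypical IκB protein of the nucleus that binds p50 and p52 dimers and can activate as well as repress. It was at 93.88 and 66.46 CPM after WT coculture and at 62.06, 58.55, and 59.2 CPM after Adam17-/- coculture. WT replicate 1 stood well above the other 4 libraries, and WT replicate 2 was only slightly above the knock-out libraries. The means were 80.2 ± 19.4 CPM (SD, n = 2) and 59.9 ± 1.87 CPM (SD, n = 3), and edgeR fitted a log2 change of -0.42 (SE 0.131, adjusted p = 0.0357). Without WT replicate 1 the value was -0.15 (adjusted p = 0.157 from edgeR), so most of the difference came from that library. Without Adam17-/- replicate 1, 2, or 3 the value was -0.42, -0.38, and -0.39, and the adjusted p was 0.0927, 0.113, and 0.110 in edgeR. Bcl3 lies 179 kb from Relb on chromosome 7.

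Nfkbia (Entrez Gene 18035, chromosome 12, 55489409 to 55492647) encodes IκBα, the inhibitor that is degraded and resynthesized in the canonical response. Its values were 157.2 and 143.3 CPM with WT cells and 129.1, 139.7, and 137.6 CPM with Adam17-/- cells. The groups did not overlap, but the gap was small beside the spread within each group. The fit in edgeR gave -0.15 on the log2 scale (SE 0.0836, adjusted p = 0.197). Libraries scaled by size alone gave -0.0020 and the FPKM fits -0.0017. Relative to the median of all genes the value was -0.16 with TMM factors and with library size alike, since the scaling moves all genes together. With Nfkbia, 5 of the 10 genes were lower in the knock-out cocultures without overlap, where 29.7% of all genes tested were, and 0 were higher without overlap, where 28.4% of all genes were. Without WT replicate 2, Nfkbia fell by 0.22 on the log2 scale (adjusted p = 0.0317 from edgeR), as did Relb by 0.37 (adjusted p = 0.0290) and Nfkbie by 0.35 (adjusted p = 0.0436).

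The remaining 3 regulators overlapped between the groups and did not pass. Nfkbie (Entrez Gene 18037, chromosome 17, 45555700 to 45563169), which encodes IκBε, a slower-acting inhibitor of the same kind, had 44.17 and 38.91 CPM against 33.93, 40.33, and 30.34 CPM, which edgeR fitted as a log2 change of -0.26 (SE 0.125, adjusted p = 0.145). Nfkbiz (Entrez Gene 80859, chromosome 16, 55811375 to 55838954) encodes IκBζ, an inducible nuclear protein that licenses a set of secondary response genes. It had 74.57 and 59.58 CPM against 71.31, 68.15, and 66.61 CPM, and its 3 knock-out values lay within the gap between the WT replicates (log2 fold change 0.03, SE 0.106, adjusted p = 0.828 from edgeR). Its direction changed with 1 library, since it was -0.12 without WT replicate 2 and 0.20 without WT replicate 1. Tnfaip3 (Entrez Gene 21929, chromosome 10, 19000910 to 19015410) encodes A20, the ubiquitin-editing enzyme that shuts off signaling upstream of the kinase complex. It had 37 and 33.12 CPM against 36.67, 45, and 36.27 CPM, and it was the gene with the highest log2 fold change of the group, 0.16 (SE 0.117, adjusted p = 0.311 from edgeR).

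These values depended on how the libraries were scaled. With library size in place of TMM factors, the median over all genes tested moved from 0.01 to 0.16 on the log2 scale, and 8.56% of all genes then fell while 24% rose. Of the 10 NF-κB genes, 1 fell under that scaling, Nfkb2 (log2 fold change -0.40, adjusted p = 0.0387 from edgeR), and 0 rose. Rela was at -0.26 (adjusted p = 0.0623), Nfkb1 at -0.13 (adjusted p = 0.242), and Bcl3 at -0.27 (adjusted p = 0.122), all from edgeR and none passing. Relative to the median of all genes, the values were nearly the same under either scaling, at -0.56 and -0.55 for Nfkb2, -0.42 and -0.42 for Rela, -0.29 and -0.29 for Nfkb1, and -0.43 and -0.42 for Bcl3. A change of scaling moves all genes by nearly the same amount, so this agreement was fixed in advance and is no test of the values. Measured against that median, 9 of the 10 genes had the same sign in all 13 alternative fits and Nfkbiz in 11. The fits that change the scaling alone add nothing to this count.

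**Figure D2:**
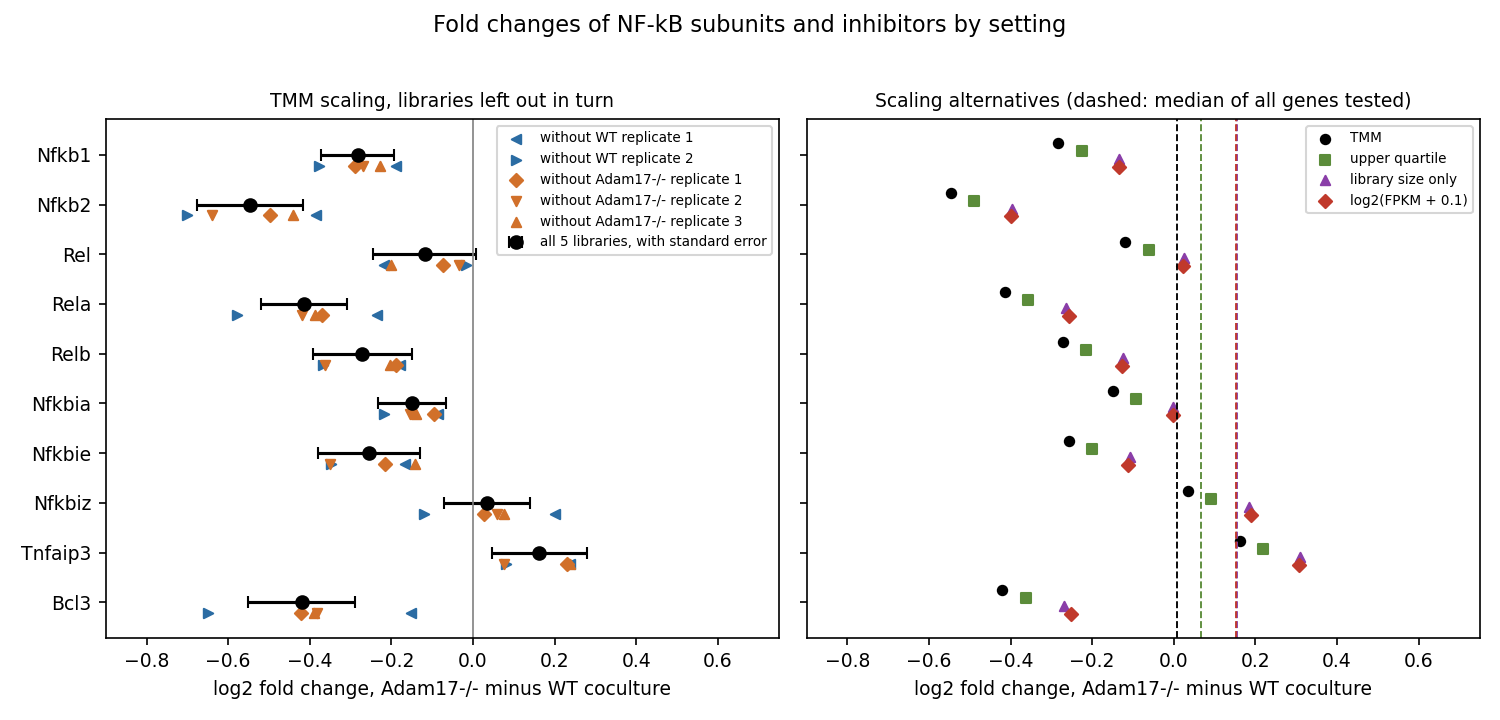
Log2 fold changes (Adam17-/- minus WT coculture) of the 10 genes, at left from all 5 libraries with the SE and with each library left out in turn, at right under 4 scalings, with dashed lines at the median of all genes tested. Nfkb2 ranges from -0.70 to -0.38 over the omissions and Bcl3 from -0.65 to -0.15, and library size alone moves every gene to the right together with the median.

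To compare the genes with one another, levels were taken per transcript length, as FPKM. In the WT cocultures Nfkbia had the highest level of the 10 genes, 92.6 ± 3.08 FPKM (SD, n = 2), followed by Rela at 60.4 ± 8.24 FPKM. Bcl3 (42.5 ± 8.94 FPKM), Nfkb2 (35.1 ± 4.48 FPKM), and Nfkb1 (32.3 ± 2.00 FPKM) came next, and each overlapped its neighbor in this order. Nfkbiz (17.7 ± 2.23 FPKM), Nfkbie (16.4 ± 0.955 FPKM), and Relb (16.4 ± 0.990 FPKM) could not be ordered beyond their spread, and Tnfaip3 (7.55 ± 0.332 FPKM) and Rel (7.36 ± 0.962 FPKM) were the lowest and overlapped as well. Even these 2 exceeded the level of 57.7% and 57.3% of the genes listed, and Nfkbia exceeded that of 95.7%.

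In the Adam17-/- cocultures the order of the 10 genes was the same except that Nfkb1 (29.4 ± 1.45 FPKM, n = 3) and Nfkb2 (26.7 ± 3.66 FPKM, n = 3) changed places, with overlapping values. Nfkbia stood at 92.5 ± 3.29 FPKM (SD, n = 3), and its libraries spanned those of the WT cocultures on this scale. Tnfaip3 had 7.31 and 7.78 FPKM in the WT libraries and 8.63 to 10.73 FPKM in the Adam17-/- libraries, without overlap, whereas it overlapped as TMM-normalized CPM. Bcl3 overlapped as FPKM (36.14 FPKM in WT replicate 2 and 36.81 FPKM in Adam17-/- replicate 1). FPKM values carry no TMM factor, so they share the scaling of library size alone.

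**Figure D3:**
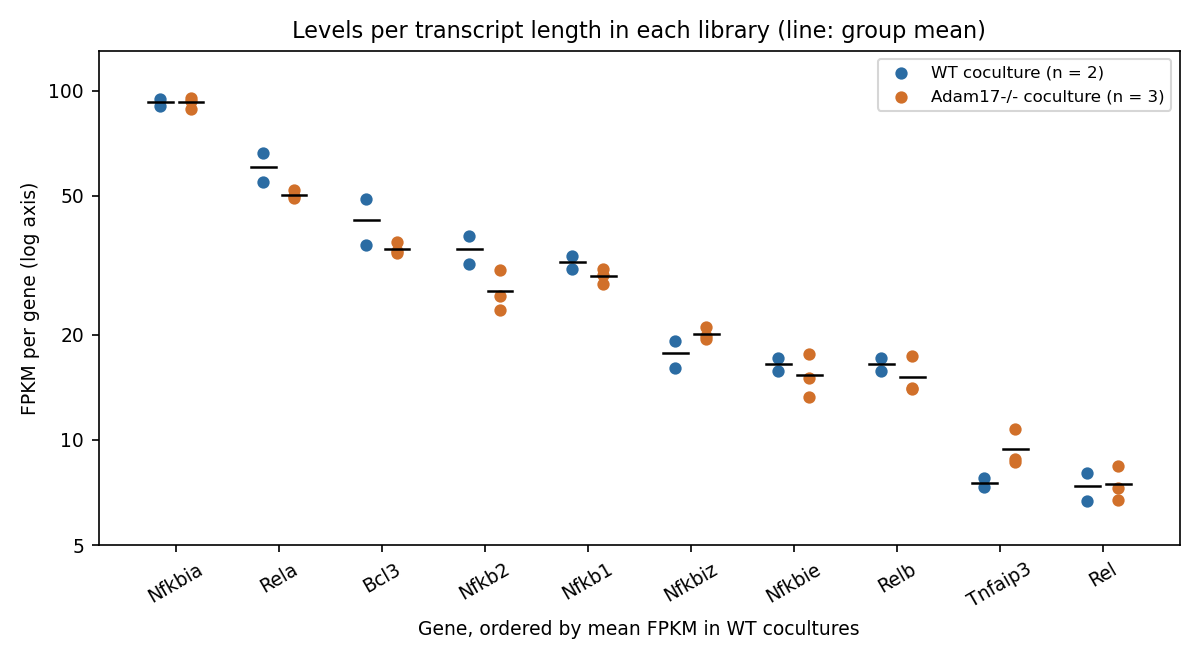
FPKM of each gene in every library on a log axis, ordered by the mean of the WT cocultures (blue) with the Adam17-/- cocultures (orange) beside them. Nfkbia lies between 88.79 and 95.15 FPKM in both groups, Rel at 6.68 to 8.43 FPKM, and the Rela, Nfkb1, and Nfkb2 points are lower in the Adam17-/- cocultures.

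A ratio of 2 genes within a library does not depend on the scaling between libraries, and these ratios are given as values without a test. The 5 subunit genes summed to 162 and 141 FPKM in the WT cocultures and to 127, 136, and 124 FPKM in the Adam17-/- cocultures. Nfkbia FPKM per summed subunit FPKM was 0.585 and 0.640 after WT coculture and 0.699, 0.698, and 0.755 after Adam17-/- coculture, so that it was higher in every knock-out library. The ratio of Nfkbia to Rela was 1.43 and 1.66 against 1.81, 1.83, and 1.87, likewise without overlap. The ratio of Tnfaip3 to Nfkbia was 0.0821 and 0.0809 against 0.0994, 0.113, and 0.0924.

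The balance between the subunits was less clearly different. Rela made up 38.1% to 40.9% of the summed subunit FPKM over the 5 libraries, and Rel 4.12% to 6.81%. The noncanonical pair Nfkb2 and Relb made up 34.2% and 33.8% with WT cells and 31.3%, 35.2%, and 30.3% with Adam17-/- cells, where replicate 2 was above both WT libraries. Nfkb2 per Nfkb1 was 1.14 and 1.03 after WT coculture and 0.841, 1.03, and 0.841 after Adam17-/- coculture, and replicate 2 equaled WT replicate 2.

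**Figure D4:**
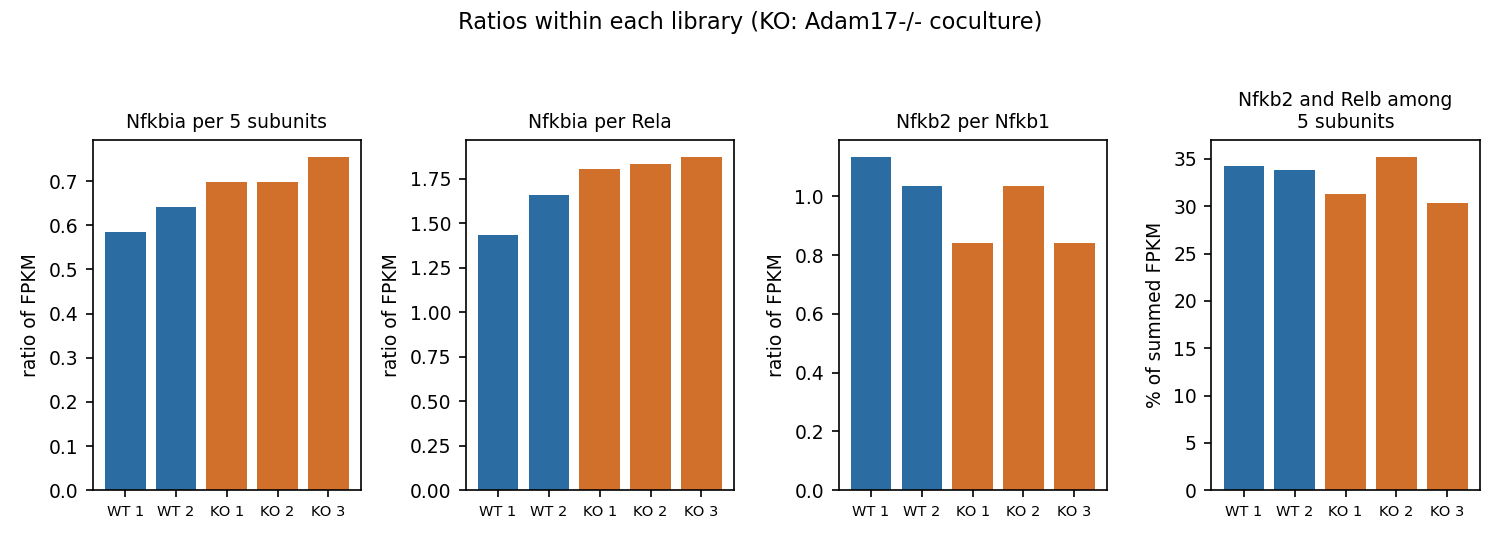
Bars of 4 within-library ratios for the 5 libraries, from FPKM: Nfkbia per 5 summed subunits, Nfkbia per Rela, Nfkb2 per Nfkb1, and the percentage of Nfkb2 and Relb among the subunits. The first 2 are higher in each Adam17-/- library (orange) than in both WT libraries (blue), and the last 2 are not separated because Adam17-/- replicate 2 lies at or above a WT library.

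The files list 16 transcripts of these genes, 1 each for Nfkb1, Rel, Rela, Nfkbia, and Bcl3 and 2 or 3 for the others. Tested as transcripts, 0 of the 16 passed in edgeR and 4 had an unadjusted p under 0.05, where 4.19% of the 17618 transcripts tested fell, 3.41% rose, and 27.6% had an unadjusted p under 0.05. The 4 were the 1 transcript of Nfkb1, Rela, and Bcl3 and the main transcript of Nfkb2, of 3054 bases, which had the smallest adjusted p (0.0760 from edgeR, log2 fold change -0.62). Since the 1 transcript of Nfkb1, Rela, and Bcl3 holds the same counts as the gene, the lost calls there came from the fit over transcripts and not from other reads.

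The 3054-base transcript held 68.5% to 84.7% of the Nfkb2 counts in the 5 libraries, a 3205-base transcript 13.1% to 26.2%, and a 2973-base transcript 1.33% to 5.27%. In Tnfaip3, the shorter transcript of 4352 bases held 6.10% and 20.6% with WT cells and 21.5%, 24.7%, and 19.2% with Adam17-/- cells, so that WT replicate 1 stood apart and WT replicate 2 lay within the knock-out range. The main transcript of Relb (2218 bases) held 73.6% to 89.5%, that of Nfkbie (2438 bases) 98.3% or more, and that of Nfkbiz (3625 bases) 93.7% or more. How reads were divided among transcripts of a gene is an estimate whose uncertainty does not enter the fit.

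The genes around the pathway were taken from 5 lists of 75 genes, of which 74 were tested. Of these, 13 rose and 14 fell, against 14.9% and 16.8% of all genes, and the median log2 fold change was -0.06. The lists did not move as one, and they are described in the order of the signal, from receptors to target genes.

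Of 8 receptors that feed NF-κB, 4 fell and 0 rose in edgeR and in DESeq2. By that edgeR test 16.8% of all genes fell and 14.9% rose. At an unadjusted p under 0.05 the receptor counts were the same, where 43.5% of all genes stood in either direction. Counted in either direction, the receptor share was near that background, which does not bear on the direction. The list was not tested against all genes. The receptors had a median log2 fold change of -0.29. Tnfrsf1a, which encodes TNFR1, had 229.4 and 194.5 CPM after WT coculture and 146.8, 141.9, and 145.8 CPM after Adam17-/- coculture, which edgeR fitted as a log2 change of -0.55 (SE 0.0894, adjusted p = 0.00234). Tnfrsf1b, which encodes the other receptor of TNF-α, had 412 to 466.8 CPM over the 5 libraries and did not pass (log2 change -0.03, adjusted p = 0.833 from edgeR). The others that fell were Tlr2, the receptor of bacterial lipopeptides, at -0.52, Ltbr, the lymphotoxin-β receptor and an activator of the noncanonical branch, at -0.53, and Tnfrsf11a, which encodes RANK, at -0.48. Without Adam17-/- replicate 1, Tlr2 had an adjusted p of 0.0512 in edgeR, and Tnfrsf11a had 0.0555 and 0.0578 in the limma fits of FPKM and 0.0628 in edgeR with the replicate block. Of 16 adaptors and ubiquitin ligases, 1 rose and 1 fell (median -0.03). Birc2, which encodes the ubiquitin ligase cIAP1, was at 26.9 and 29.82 CPM against 44.8 to 46.08 CPM and rose by 0.68 on the log2 scale (adjusted p = 0.00103 from edgeR). Ripk1, the kinase recruited to the TNF receptor, fell by 0.32 on the log2 scale, and its adjusted p rose above 0.05 with any Adam17-/- library left out.

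The kinases that passed were higher and the subunits that passed were lower, with few genes on either side and no test between them. Of 11 kinases and kinase subunits, 5 rose and 0 fell in edgeR and in DESeq2. By that edgeR test 14.9% of all genes rose and 16.8% fell. At an unadjusted p under 0.05 the kinase counts were again the same. Counted in either direction, their share was near the 43.5% of all genes, which does not bear on the direction. The list was not tested against all genes. The kinases had a median log2 fold change of 0.19. Map3k8, which encodes TPL2, the kinase held by p105, was at 19.83 and 18.29 CPM with WT cells and at 43.24, 36.25, and 37.91 CPM with Adam17-/- cells, which edgeR fitted as a log2 change of 1.04 (SE 0.111, adjusted p = 0.000465). The other 4 were the 3 parts of the IκB kinase complex, Chuk (0.38), Ikbkb (0.29), and Ikbkg (0.29), and the kinase upstream of it, Map3k7 (0.27), which encodes TAK1. These 4 were small changes: without Adam17-/- replicate 1, only Map3k8 passed, and without replicate 2 or replicate 3 the counts were 2 and 3 of the 5. With the replicate block, and at an adjusted p of 0.01, 1 kinase of the list passed as higher in edgeR. The kinase that drives processing of p100, Map3k14, had a log2 fold change of -0.19 and did not pass (adjusted p = 0.237 from edgeR). The counts of Ikbkg and Birc2, and of Nkiras1 described next, were not whole numbers in some or all libraries, so that some of their reads were divided with other sequences.

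Of 16 other negative regulators, 2 rose and 2 fell (median -0.17). Nfkbib, which encodes IκBβ, the third classic IκB beside the products of Nfkbia and Nfkbie, fell from 32.86 and 27 CPM to 18.88, 21.25, and 22.29 CPM, which edgeR fitted as a log2 change of -0.53 (SE 0.12, adjusted p = 0.01). Tollip, an adaptor that limits Toll-like receptor signaling, fell by 0.35 on the log2 scale. Nkiras1, which encodes κB-Ras1, rose by 0.61 on that scale, and Tnip2, which encodes the A20-binding protein ABIN2, by 0.30. Nkiras1 kept its call with any library left out, whereas Nfkbib, Tollip, and Tnip2 each lost theirs in at least 1 omission. Without Adam17-/- replicate 1 the list had 1 higher and 0 lower, and without WT replicate 2 it had 6 lower.

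The target genes went both ways. Of 24 genes known to be induced by NF-κB, 23 were tested, 5 rose, and 7 fell, and the log2 fold changes ran from -2.42 to 2.57 around a median of -0.08. The lowest were Ccl2, the main monocyte chemoattractant, Tnf, and Cxcl1. Ccl2 stood at 192.5 and 133 CPM after WT coculture and at 19.81, 35.52, and 36.17 CPM after Adam17-/- coculture (log2 fold change -2.42, SE 0.231, adjusted p = 0.000352 from edgeR). Tnf fell from 30.77 and 21.21 CPM to 9.687, 10.33, and 10.17 CPM (log2 fold change -1.37, adjusted p = 0.000559 from edgeR), and Cxcl1 by 1.19 on the log2 scale. The highest were Il12b, the shared subunit of IL-12 and IL-23, at 2.57, Lcn2, an iron-carrier-binding protein of neutrophils and macrophages, at 1.24, and Nos2, the inducible nitric oxide synthase, at 1.03. Il12b rested on few reads, with 13 and 11 counts after WT coculture against 80, 67, and 52 counts. Nos2 rose in all 3 libraries, from 45.22 and 44.54 CPM to between 87.63 and 94.3 CPM. Il6 did not pass the filter on low counts and was not tested. It had 8 and 9 counts after WT coculture against 2, 2, and 3 counts after Adam17-/- coculture, where only the latter are at or under the floor of 3 counts. The rise of Lcn2 stood beside that of the neutrophil granule genes given above, and that of Il12b beside the dendritic cell genes, and the part of either in these values was not tested.

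**Figure D5:**
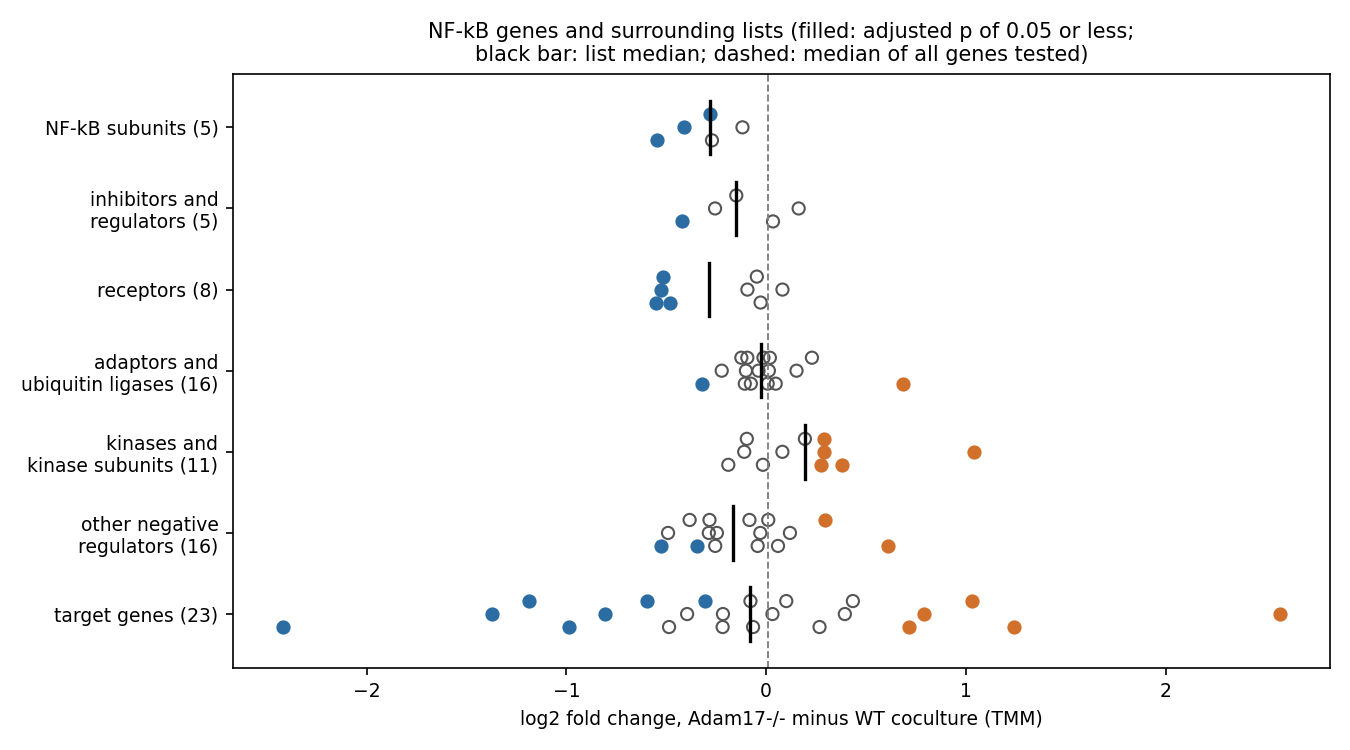
Log2 fold changes (Adam17-/- minus WT coculture) of the tested genes by role, with filled points for an adjusted p of 0.05 or less from edgeR, a black bar at each list's median, and a dashed line at the median of all genes tested (0.01). The subunits and receptors have their filled points on the left at -0.55 to -0.28, the kinases on the right, and the target genes on both sides from -2.42 to 2.57.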

How the data were processed

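RNA-Seq was done on 5 BMDM libraries, 2 from WT and 3 from Adam17-/- cocultures, grouped by their labels. The libraries were made from poly-A RNA per the labels, and per the study's methods they were sequenced on a BGISEQ-500 and aligned to GRCm38 with HISAT, and the submitters' processing notes name RSEM, Bowtie, Bowtie2, and DESeq2 (versions not given in the sources used here). The authors deposited, per transcript and library, an expected count without normalization and an FPKM value that is scaled to length and library size. Transcripts under 0.01 FPKM are not listed and were taken as 0. Whether counting used strand is not stated.

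Both units were summed per Entrez gene (17015 of 17058 genes matched a symbol), and the counts were rounded. Of the gene sums in each library, 14.35% to 15.03% were not whole (tolerance 0.01), and all sums of the 10 genes were whole. The quasi-likelihood test of edgeR 4.0.16 (R 4.3.3, TMM factors, filterByExpr, no covariates) was fitted over all genes, with Benjamini-Hochberg adjustment. Standard errors are the absolute log2 fold change divided by the square root of F. Nothing says that the samples came from separate animals, so p-values measure the spread between these samples, which may be technical. An exact permutation test of 2 against 3 samples cannot go below p = 0.1. A count of 3 corresponds to 0.157 to 0.197 CPM.

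The members and lists were chosen with earlier results of these data known, so their counts are descriptions, and no list was tested. All 10 genes are named. Of each list the genes that passed are named, or, where more than 6 passed, the 3 largest changes in each direction on the log2 scale, and genes named beside these were chosen after their values were seen. Promoters came from RefSeq and were searched on both strands. Alternatives were another tool (DESeq2 1.42.0), scaling by upper quartile or by library size only, no filter, at least 10 counts in every library, limma 3.58.1 on log2(FPKM + 0.1) and log2(FPKM + 1), the replicate number as a block, an adjusted p of 0.01, and each replicate left out. The scripts were tested on simulated data with changes larger than those of the 10 genes, so that test does not cover changes of this size. Python 3.11.15, pandas 2.3.3, and matplotlib 3.10.9 were also used.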

Additional observations from a re-analysis of the deposited data

How the results depend on the processing

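The limits are the 2 WT samples, which differed more from each other than the 3 Adam17-/- samples did, small fold changes, and the scaling. Of 10 NF-κB genes, 4 fell; the count was also 4 with DESeq2, without a filter, and with at least 10 counts in every library, but 2 with upper quartile factors, 1 with library size only and in each FPKM fit, 0 at an adjusted p of 0.01, and 0 to 7 with a library left out (0 without Adam17-/- replicate 1 or 3, 7 without WT replicate 2). In every alternative, 0 rose. As transcripts, 0 fell, and 0 to 3 with a library left out (3 without WT replicate 2). Of the 5 lists, 13 genes rose and 14 fell, against 7 higher at an adjusted p of 0.01, and 8 to 15 higher and 9 to 25 lower with a library left out. Over all genes, 1869 rose and 2114 fell, against 3019 and 1077 with library size only, 2927 and 1016 with log2(FPKM + 0.1), 2867 and 1011 with log2(FPKM + 1), 815 and 1027 at an adjusted p of 0.01, and 1089 to 2460 and 926 to 2940 with a library left out. Rel turned from -0.12 to 0.026 with library size only and to 0.022 and 0.019 in the FPKM fits with a pseudocount of 0.1 and 1, in each of which the median of all genes was higher still, and Nfkbiz, at 0.03, ranged from -0.12 without WT replicate 2 to 0.20 without WT replicate 1. The cause was not tested. Omitting a library leaves 1 WT or 2 Adam17-/- samples, and a lone WT sample is assumed to vary like the others.

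Only replicate numbers 1 and 2 are shared by the groups, and the samples with the same number did not deviate together (correlation of deviations -0.124 and -0.05), so the numbers were not taken to pair the samples. With the replicate block, 0 NF-κB genes fell and 0 rose, 8 genes of the lists rose and 10 fell, and 1216 genes rose and 1126 fell overall.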
